A study of Rattus norvegicus with 4 samples.

Results

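*Col1a2* and *Col3a1*, which encode chains of the fibrillar collagens, and *Fkbp7* and *Plod2*, which encode enzymes of the endoplasmic reticulum (ER), were followed in long-read RNA sequencing (Iso-Seq) after knockdown of *RbFox2*. The cells were A7R5, a line of smooth muscle cells from the aorta of rat embryos. One condition received a negative control pool of siRNAs and the other a SMARTPool siRNA against *RbFox2*, an RNA-binding splicing factor, for 72 hours, with 2 libraries of polyA RNA per condition. The protocol text shared by the labels also names a siRNA against RhoBTB1, whereas the titles and treatment tags give RbFox2 only. All 4 libraries come from this single line, so the values describe cultured cells and not an artery.

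The members were selected on the counts of these same 4 libraries, as features that differed between the conditions, so their differences are given as a description and no test is drawn from them. Of the 4 symbols, 3 could be matched to a gene (3 of 30454 genes listed), and *Plod2* could be matched through its transcript Plod2-201 (1 of 54852 transcripts listed, ENSRNOT00000041859). The level of the whole *Plod2* gene was not analysed here. All 4 features had enough reads to enter the comparison across all genes or transcripts.

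Fibrillar collagens are rod-shaped proteins of the vessel wall that give it tensile strength. Their chains are made in the ER, where prolyl and lysyl hydroxylases modify them, prolyl isomerases and chaperones help them fold into a triple helix, and coated vesicles carry the procollagen to the Golgi. Outside the cell the propeptides are clipped off and lysyl oxidases cross-link the fibrils. *Col1a2* encodes the alpha 2 chain of type I collagen and *Col3a1* the chain of type III collagen, both abundant in arteries. *Fkbp7* encodes an ER prolyl isomerase of the FK506-binding family, and *Plod2* a lysyl hydroxylase that acts on collagen telopeptides and so influences the kind of cross-link formed.

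The promoter window of *Plod2* differed in base composition from those of *Col1a2* and *Fkbp7*, which were lower after RbFox2 siRNA. For *Plod2* only a transcript was read as higher, and the direction of the whole gene was not analysed. RefSeq promoter sequences (GRCr8, a newer build than the mRatBN7.2 assembly the reads were aligned to) run from 250 bases before to 50 bases after the annotated start and were matched for *Col1a2*, *Fkbp7* and *Plod2*, 3 of the 4 members. *Col3a1* had no entry. GC content was 57.0% for *Col1a2*, 54.0% for *Fkbp7* and 73.7% for *Plod2*, against a median of 51.7% and quartiles of 44.7% and 60.3% over 33469 rat promoters. The *Plod2* window holds 40 CpG dinucleotides, compared with 15 for *Col1a2*, 13 for *Fkbp7* and a median of 7 over all promoters. These 4 short motifs were searched on both strands, the CCAAT box, the TATAAA box, TGCATG (the DNA letters of the RNA motif bound by Rbfox proteins) and ACGTG (the core of hypoxia response elements). They occur in 37.5%, 14.2%, 10.5% and 19.3% of all promoters, respectively. *Col1a2* held the first 3 of them and *Plod2* held ACGTG at 2 places, while none of these letters occurred in the *Fkbp7* window. The windows below of 30 bases show each match in capitals, on the strand of the gene and 5′ to 3′. They show which letters these promoters do and do not share, and a match is not evidence of binding.
Col1a2, chr4:33518324-33518353, plus strand, CCAAT read on the other strand, first base at -221 from the start: ccctgccctcccATTGGtggagacgttttt
Col1a2, chr4:33518375-33518404, plus strand, TATAAA at -170: aaacttttcccaTATAAAtagggcaggtct
Col1a2, chr4:33518525-33518554, plus strand, TGCATG at -20: acacaaggagtcTGCATGtctaagtggtag
Plod2, chr8:101964128-101964157, plus strand, ACGTG read on the other strand, at -178: cgcagaggggcgCACGTtccgcaagcaagc
Plod2, chr8:101964173-101964202, plus strand, ACGTG read on the other strand, at -133: cgtgaggcggtgCACGTaggcgtaggcgac
The TGCATG of *Col1a2* lies before the annotated start used here. An RNA that begins further upstream would contain it, and where the *Col1a2* RNA of these cells begins was not analysed.

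Levels are given as CPM, the counts of a feature divided by the sum of the library's gene table (or transcript table, for transcripts) and scaled to 1000000. The gene tables held 4072385 to 4617706 counts per library and the tables of transcripts held 2419794 to 2738439. A feature with no reads could reach 3 counts by chance of sampling, which is 0.65 to 0.737 CPM for genes and 1.10 to 1.24 CPM for transcripts, a limit that covers counting error only. A gene was called when the Benjamini-Hochberg adjusted p over all 9069 genes tested was under 0.05 and the fold change above 1.5 in edgeR's quasi-likelihood test. *Rbfox2* itself (ENSRNOG00000004688) had 243 and 250 counts with control siRNA and 70 and 78 with RbFox2 siRNA, or 58.6 ± 3.94 and 16.4 ± 0.717 CPM (SD, n = 2), and was 71.0% lower. Across all genes, 7.49% were called, 4.37% as lower and 3.12% as higher, and the median log2 fold change was -0.01. Both RbFox2 siRNA libraries lay below both control libraries in 30.2% of genes and above them in 18.8%.

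Both substrate collagens were lower after RbFox2 siRNA, and *Col3a1* by more than *Col1a2*. *Col1a2* (ENSRNOG00000011292) had 21750 and 17947 counts in the control libraries and 12039 and 13063 in the RbFox2 siRNA libraries. Its level was 4701 ± 416 CPM with control siRNA and 2779.7 ± 69.5 CPM with RbFox2 siRNA (SD, n = 2 each), which is 61.4% of control and a log2 fold change of -0.70 (SE 0.131). Both control libraries were above both RbFox2 siRNA libraries, and the control libraries differed from each other by 13.4% whereas the RbFox2 siRNA libraries differed by 3.60%. The spread of the control libraries was a log2 difference of 0.18 against a counting error of 0.015. *Col3a1* (ENSRNOG00000003357) had 9845 and 7705 counts with control siRNA and 3392 and 3412 with RbFox2 siRNA. The corresponding levels were 2077 ± 261 and 754 ± 21.5 CPM (SD, n = 2 each), 37.8% of control, with a log2 fold change of -1.40 (SE 0.133). The conditions again did not overlap, and control replicate 1 was above control replicate 2, by 19.5%.

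The isomerase gene *Fkbp7* was lower, like *Col1a2* and *Col3a1*, but was read far less deeply. *Fkbp7* (ENSRNOG00000011758) had 50 and 51 counts in the control libraries and 16 and 11 in the RbFox2 siRNA libraries, or 12.0 ± 0.734 and 3.01 ± 0.882 CPM (SD, n = 2 each). The level with RbFox2 siRNA was 26.1% of control, a log2 fold change of -1.94 (SE 0.328). The conditions did not overlap. The 2 RbFox2 siRNA libraries differed by 52.3%, a log2 difference of 0.61 against a counting error of 0.565, so their disagreement is of the size that so few reads allow. Leaving out either of them moved the log2 fold change to between -2.27 and -1.62, which makes the size of this change the least certain of the 4.

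The lysyl hydroxylase transcript Plod2-201 moved the other way. It had 56 and 62 counts with control siRNA and 318 and 381 with RbFox2 siRNA, or 23.8 ± 2.57 and 131 ± 11.9 CPM of transcript reads (SD, n = 2 each). That is 5.65-fold higher, a log2 fold change of 2.50 (SE 0.207). Replicates of a condition differed by 16.5% and 13.7%, and the lower RbFox2 siRNA library (122 CPM) stood well above the higher control library (25.6 CPM). Of the 7703 transcripts tested, 4.28% were called, 1.66% as higher and 2.62% as lower, and both RbFox2 siRNA libraries lay above both control libraries in 20.0% and below them in 26.9%. Names were held almost only for transcripts that rose, so whether other *Plod2* transcripts fell in exchange was not analysed here.

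**Figure D1:**
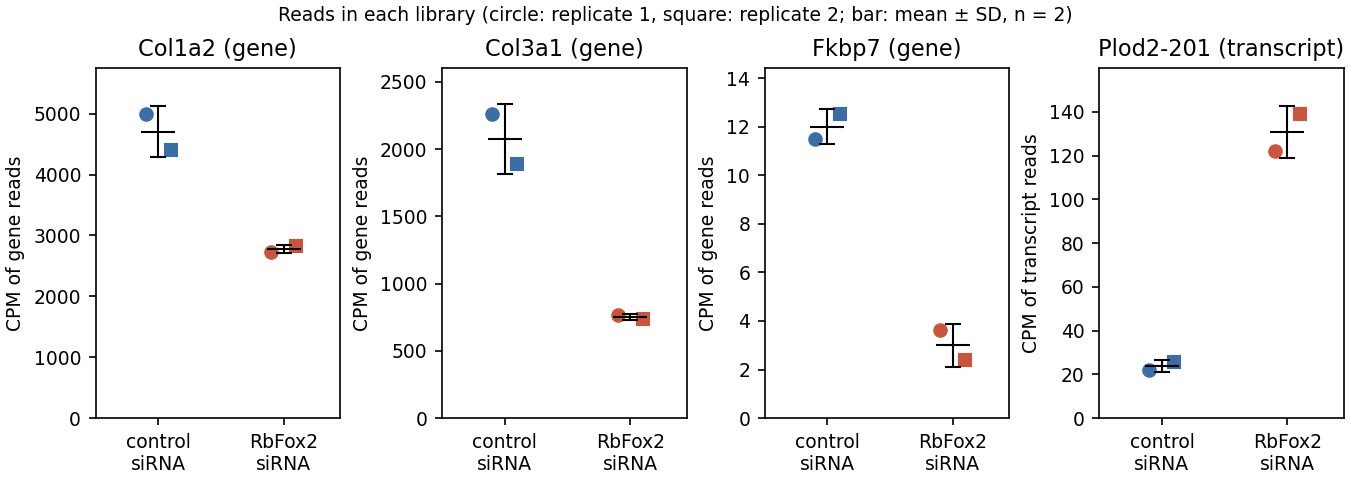
Reads of Col1a2, Col3a1 and Fkbp7 (CPM of gene reads) and of transcript Plod2-201 (CPM of transcript reads) in each library, control siRNA in blue and RbFox2 siRNA in red, with black bars for mean ± SD (n = 2). The 3 genes were lower and the transcript higher in both RbFox2 siRNA libraries, and every vertical axis starts at 0 with its own scale.

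The size of each change can be placed among all features called in the same direction with at least 10 counts in every library. Among 227 such genes that fell, *Fkbp7* ranked 5th, *Col3a1* 21st and *Col1a2* 176th by size of log2 fold change. Among 81 such transcripts that rose, Plod2-201 ranked 3rd. Over all called features, which include those with few or no reads in one condition, *Fkbp7* ranked 171st, *Col3a1* 190th and *Col1a2* 345th of 396 genes that fell, and Plod2-201 ranked 36th of 128 transcripts that rose. *Col1a2* thus ranked below *Col3a1* in both orders, although it lost the larger number of reads.

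Values at and around the cutoffs show where the members lie. *Col1a2* was nearest to the fold cutoff of the 4 members. Among the other fibrillar collagens, *Col5a1* lay just inside the cutoffs and *Col5a3*, the alpha 3 chain of type V collagen, just outside with an adjusted p of 0.0552 (edgeR). *Col5a3* had 30 and 21 counts with control siRNA and 8 and 12 with RbFox2 siRNA, with a log2 fold change of -1.38 (SE 0.386). It was past the cutoffs with DESeq2 size factors, without a low-count filter and with the replicate number as a block.

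Because Col1a2 and Col3a1 were read from the same libraries, their ratio does not depend on library size. There were 2.21 and 2.33 *Col1a2* reads per *Col3a1* read in the control libraries, against 3.55 and 3.83 in the RbFox2 siRNA libraries. The mean ratio rose from 2.27 ± 0.085 to 3.69 ± 0.198 (SD, n = 2), a log2 difference of 0.70, and it stayed between 0.65 and 0.75 when any library was left out. Both RbFox2 siRNA libraries held more type I alpha 2 reads per type III read than both control libraries, although the control libraries differed in the level of each gene. Both genes were selected on these libraries, so the ratio and its range are a description and not support.

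Some identified collagen and enzyme genes kept a similar ratio to *Col1a2*. Genes that fell could be identified almost only if called, and *Col1a2* was itself selected on these libraries. A similar ratio is therefore partly set by which genes could be chosen. The share of all genes that keep such a ratio was not analysed. *Col1a2* reads per *Col5a2* read were 4.61 and 4.98 with control siRNA and 5.11 and 4.74 with RbFox2 siRNA. The corresponding ratios to *Col5a1* were 12.4 and 13.4, then 12.8 and 12.2. Both genes encode chains of type V collagen, which co-assembles with type I fibrils, and in both the ranges of the conditions overlapped. For the third type V chain, *Col5a3*, with a log2 fold change of -1.38, the ratio was not analysed. The ratio also overlapped for *P4ha3*, at 21.3 and 19.9 against 21.0 and 20.4, and for *Fkbp10*, at 64.7 and 68.8 against 69.2 and 65.6. *P4ha3* encodes a catalytic subunit of prolyl 4-hydroxylase, which stabilizes the triple helix, and *Fkbp10* encodes FKBP65, another ER prolyl isomerase that binds collagen. For *P4ha2*, another catalytic subunit, the ratio was 17.8 and 16.8 against 18.5 and 18.2, a log2 difference of 0.08. The ranges of the conditions did not overlap for *P4ha2*.

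*Col3a1*, *Fkbp7* and *Loxl1* did not keep that ratio. *Col3a1* reads per *Fkbp10* read were 29.3 and 29.5 with control siRNA and 19.5 and 17.1 with RbFox2 siRNA, and per *P4ha2* read 8.04 and 7.21 against 5.20 and 4.75. *Col1a2* reads per *Fkbp7* read went from 435 and 352 to 752 and 1188. Within the isomerases, *Fkbp10* reads per *Fkbp7* read went from 6.72 and 5.12 to 10.9 and 18.1. *Fkbp7* was selected on these libraries and had 16 and 11 counts with RbFox2 siRNA. This ratio is therefore a description, and a difference between the 2 enzymes was not tested. *Loxl1* reads, from a lysyl oxidase gene, made 0.140 and 0.163 per *Col1a2* read with control siRNA and 0.407 and 0.346 with RbFox2 siRNA.

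**Figure D2:**
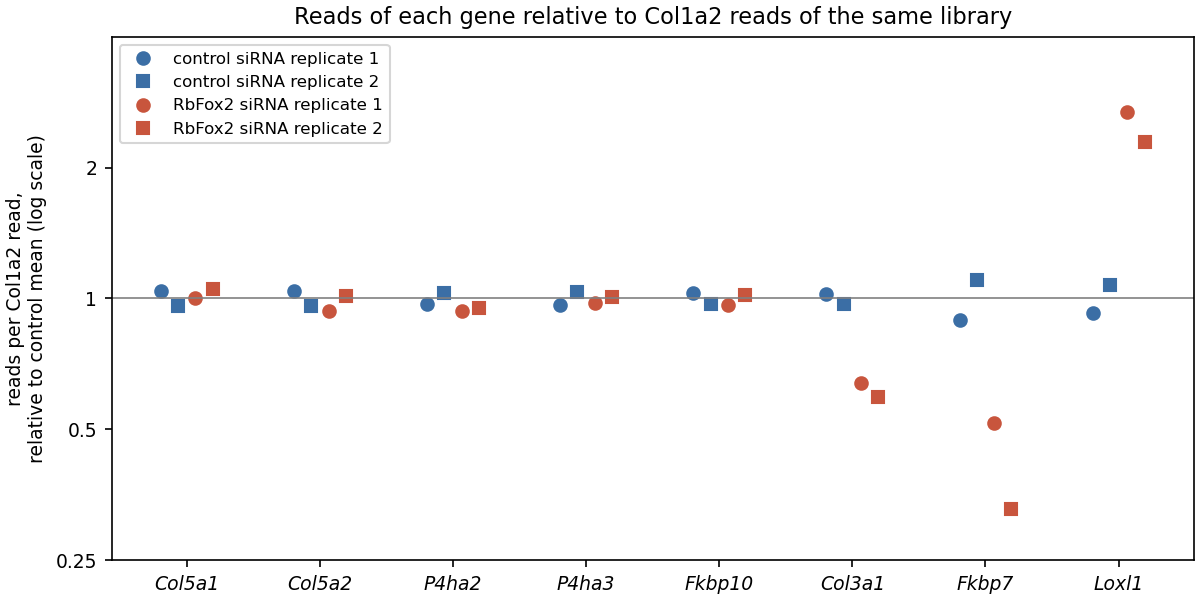
Reads of 8 genes per Col1a2 read of the same library, divided by the control mean (vertical axis, log scale), with circles for replicate 1 and squares for replicate 2, control siRNA in blue and RbFox2 siRNA in red. Col5a1, Col5a2, P4ha2, P4ha3 and Fkbp10 stay near 1 in all 4 libraries, Col3a1 and Fkbp7 are lower and Loxl1 is higher with RbFox2 siRNA. Genes that fell could be identified almost only if called.

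The wider collagen family is described from lists of symbols. The count tables carry identifiers only, and gene names were held for 642 of 679 called genes, for 1684 of 4144 genes not called with an estimate above 0 and for 11 of 4246 not called with an estimate below 0. A list gene that fell could therefore be identified almost only if it was called, which inflates the share of fallers in every list below. Of 43 collagen symbols, 11 were identified as genes, and the genes of the other 32, *Col1a1* among them, were not analysed here. For one of these a transcript was held, Col16a1-202, with 23 and 13 counts with control siRNA and 33 and 32 with RbFox2 siRNA (log2 fold change 0.80, SE 0.356, edgeR adjusted p = 0.273), above 0 and not called. Of these 11 genes, 9 were called lower, 1 higher and 1 was not called, beside a background of 4.37% lower and 3.12% higher over all genes. *Col1a2* and *Col3a1*, selected on these same libraries, are among the 9 and among the genes counted below. The one that rose had no reads in the control libraries and is described separately below. Without it the median log2 fold change was -1.05, against -0.01 over all genes, with a range of -1.79 to -0.66, and in 10 of 10 genes both RbFox2 siRNA libraries were below both control libraries, as in 30.2% of all genes. Control replicate 1 was above control replicate 2 in each of these 10 genes, and the share of all genes with that order was not analysed. Without that library the members *Col1a2* and *Col3a1* were at log2 fold changes of -0.65 and -1.31. The part of that library in the changes was not tested.

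Among the fibrillar collagens, the type V chains *Col5a1* and *Col5a2* fell beside the members. *Col5a2* had 4721 and 3601 counts with control siRNA and 2357 and 2758 with RbFox2 siRNA, for a log2 fold change of -0.74 (SE 0.134, edgeR adjusted p = 0.0041). *Col5a1* had 1753 and 1338 against 938 and 1068, a log2 fold change of -0.66 (SE 0.133, edgeR adjusted p = 0.0086), and was not past the cutoffs without control replicate 1, where it was -0.55. These 2 type V chains and *Col1a2* had nearly the same log2 fold change, and *Col3a1* had a lower one. The third type V chain, *Col5a3*, was near *Col3a1*, at -1.38 (SE 0.386), with few reads and not called. Summed over the 5 fibrillar collagen genes with reads in both conditions, the level was 8751 and 7517 CPM with control siRNA and 4249 and 4399 CPM with RbFox2 siRNA.

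Of the collagens that do not form the core of fibrils, 5 of 32 symbols were identified as genes. These 5 were called lower, beside 4.37% lower over all genes. As genes that fell were named almost only if called, this count says nothing of the other symbols. The same holds for the median log2 fold change of these 5, -1.07 against -0.01 over all genes. Their changes ranged from -1.79 to -0.72, so some were larger and some smaller than that of *Col3a1*. *Col6a3*, a chain of the microfibrillar type VI collagen, had 1240 and 840 counts with control siRNA and 290 and 326 with RbFox2 siRNA, for a log2 fold change of -1.79 (SE 0.161). *Col6a1*, a second chain of the same protein, had 221 and 190 against 104 and 97 (-1.07, SE 0.178). *Col15a1*, a basement membrane zone collagen, had 699 and 650 against 249 and 267 (-1.43, SE 0.140), which is close to *Col3a1*. *Col12a1*, which decorates type I fibrils, was at -1.03 (SE 0.216) and *Col18a1*, a basement membrane collagen, at -0.72 (SE 0.135). All 5 kept their call in every alternative fit and with any library left out.

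Among the modifying and folding enzymes, 7 of 21 symbols were identified, and 5 were called lower, 1 higher and 1 was not called, beside 4.37% lower and 3.12% higher over all genes. Identification itself depended on the call here too, and *Fkbp7*, selected on these same libraries, is among those counted as lower here and below. Without the 2 that had no reads in one condition, 4 of 5 were called lower, and the fifth, *Fkbp2*, was not called. The prolyl 4-hydroxylase subunits *P4ha2* and *P4ha3* both fell. *P4ha2* had 1224 and 1068 counts with control siRNA and 652 and 719 with RbFox2 siRNA, for a log2 fold change of -0.79 (SE 0.126, edgeR adjusted p = 0.0017). *P4ha3* had 1020 and 903 against 572 and 641, a log2 fold change of -0.71 (SE 0.128, edgeR adjusted p = 0.0040). Both are close to *Col1a2* and less reduced than *Col3a1*. No gene of the lysyl hydroxylase and collagen glycosyltransferase list could be identified, so Plod2-201 is the only reading of that step.

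Among the ER prolyl isomerases, *Fkbp10* fell with *Fkbp7*, whereas *Fkbp2* could not be measured precisely. *Fkbp10* had 336 and 261 counts with control siRNA and 174 and 199 with RbFox2 siRNA, for a log2 fold change of -0.72 (SE 0.166, edgeR adjusted p = 0.0208). Without control replicate 1 it was -0.62 and no longer called. *Fkbp2* had 5 and 12 counts against 8 and 14, a log2 fold change of 0.31 (SE 0.548, edgeR adjusted p = 0.824), and was not called. Its sign turned when control replicate 1 or RbFox2 siRNA replicate 2 was left out (-0.26 and -0.06).

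**Figure D3:**
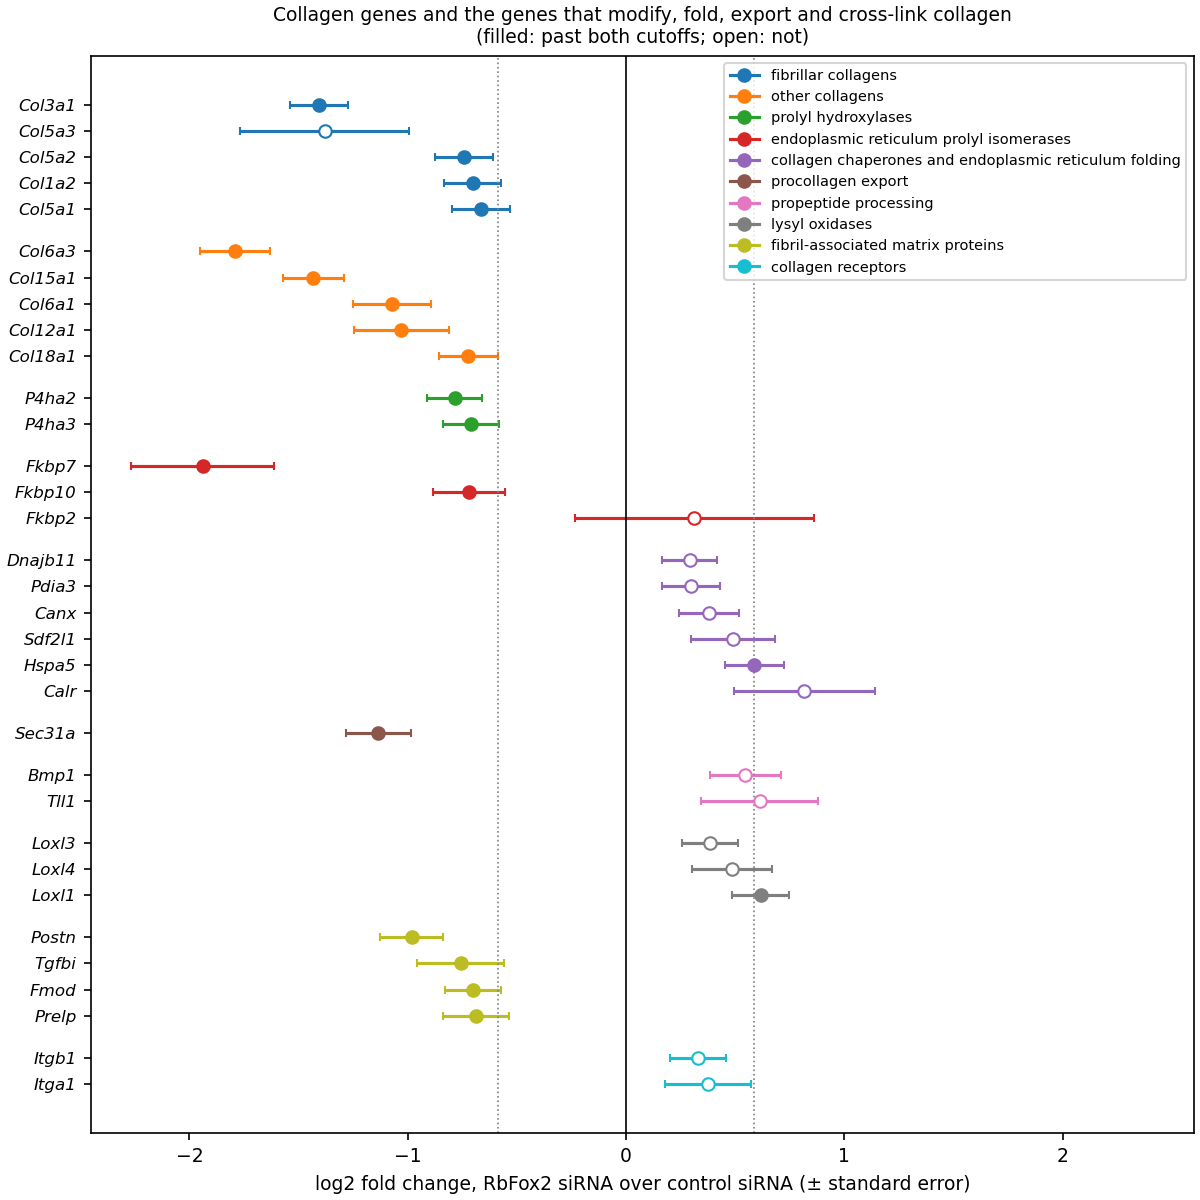
Log2 fold change, RbFox2 siRNA over control siRNA, with standard error (horizontal axis) for identified genes of 10 lists with reads in both conditions; filled circles passed both cutoffs, open circles did not, and dotted lines mark a 1.5-fold change. The collagens, the hydroxylases and the isomerases Fkbp7 and Fkbp10 lie left of 0 and the chaperones and lysyl oxidases right of it.

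A few genes of the pathway had no reads in one condition and many in the other, and their fold changes are given as lower bounds against 3 counts per library. *Col11a1*, a minor fibrillar collagen chain, had 0 and 0 counts with control siRNA and 203 and 260 with RbFox2 siRNA, at least 71.8-fold higher. *Ppib*, which encodes the ER prolyl isomerase cyclophilin B, had 0 and 0 against 431 and 632, at least 165-fold higher. *Fkbp14*, another ER isomerase of the FK506-binding family, had 737 and 784 counts with control siRNA and 0 and 0 with RbFox2 siRNA, at least 272-fold lower. The ER cochaperone gene *Dnajb9* went from 0 and 0 to 1129 and 1231 counts, at least 367-fold higher, and the collagen receptor gene *Ddr2* from 105 and 110 to 0 and 0, at least 38.4-fold lower. This pattern was not particular to the pathway, as 341 genes of the series were read only in one of the conditions (0 in each library there, 10 or more in each library of the other), 180 being at 0 with control siRNA and 161 with RbFox2 siRNA. Within a condition it was rare, as 1 gene with control siRNA and 3 genes with RbFox2 siRNA had 0 counts in one library and at least 10 in the other. Whether reads of such genes were assigned elsewhere was not tested. The deposited counts are held separately for each condition, so a difference in read assignment between them cannot be told apart from the siRNA. The same limit holds for every comparison of the conditions, Plod2-201 and the *Sec31a* transcripts included. None of *Col1a2*, *Col3a1*, *Fkbp7* and Plod2-201 had this pattern.

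The identified chaperones of the ER had estimates above 0, unlike *Fkbp7* and *Fkbp10*. Of 13 symbols, 7 were identified, of which 2 were called higher and 5 were not called, beside 3.12% higher and 4.37% lower over all genes. One of the 2 is *Dnajb9*, which had no reads with control siRNA. Without it the median log2 fold change was 0.43. *Hspa5*, which encodes the ER chaperone BiP, had 12782 and 11977 counts with control siRNA and 19890 and 18464 with RbFox2 siRNA, for a log2 fold change of 0.59 (SE 0.136, edgeR adjusted p = 0.0212). It lay at the fold cutoff and was not called with scaling by library size only (0.53) or without control replicate 1 (0.55), control replicate 2 (0.63) or RbFox2 siRNA replicate 1 (0.49). The most read of the others, the disulfide isomerase gene *Pdia3*, had 20047 and 17958 against 24634 and 23468 (0.30, edgeR adjusted p = 0.258), and the cochaperone gene *Dnajb11* had 3826 and 3360 against 4586 and 4467 (0.29, edgeR adjusted p = 0.223). Genes with an estimate above 0 were more often named than genes below it, so the position of this list is also shaped by which names were held.

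Of the genes for export and processing, *Sec31a* fell and the procollagen proteinases were not called. *Sec31a*, a subunit of the outer coat of the vesicles that leave the ER, had 849 and 746 counts with control siRNA and 407 and 340 with RbFox2 siRNA, for a log2 fold change of -1.13 (SE 0.150, edgeR adjusted p = 0.0004). It was the only one of 11 export symbols identified. *Bmp1* and *Tll1*, which encode procollagen C-proteinases, had 230 and 239 against 364 and 344 counts (0.55, edgeR adjusted p = 0.0739) and 44 and 28 against 56 and 57 (0.61, edgeR adjusted p = 0.240).

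The lysyl oxidase gene *Loxl1* rose while the collagens fell. *Loxl1*, which acts on collagen and elastin, had 3047 and 2918 counts with control siRNA and 4905 and 4526 with RbFox2 siRNA, for a log2 fold change of 0.62 (SE 0.131, edgeR adjusted p = 0.0126). Its call was lost with scaling by library size only (0.56) and without control replicate 1 (0.56) or RbFox2 siRNA replicate 1 (0.51), always with the same direction. *Loxl3* had 1130 and 1052 against 1499 and 1439 (0.38, edgeR adjusted p = 0.107) and *Loxl4* had 121 and 120 against 183 and 165 (0.48, edgeR adjusted p = 0.164). Summed over these 3 genes, the level was 987 and 1004 CPM with control siRNA and 1494 and 1327 CPM with RbFox2 siRNA.

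Of 12 symbols for proteins that coat or join collagen fibrils, 4 were identified and these 4 were called lower (median -0.73), against 4.37% of all genes, and the other 8 genes were not analysed here. As names of falling genes were held almost only for called genes, this count says nothing of the rest of the list. *Postn*, which encodes the matricellular protein periostin, had 35085 and 27931 counts with control siRNA and 16985 and 15756 with RbFox2 siRNA, for a log2 fold change of -0.98 (SE 0.143, edgeR adjusted p = 0.0009). *Fmod* and *Prelp*, small leucine-rich proteoglycans, were at -0.70 (SE 0.129) and -0.69 (SE 0.151), and *Tgfbi* at -0.76 (SE 0.199, edgeR adjusted p = 0.0409). The calls of *Fmod* without RbFox2 siRNA replicate 2 (-0.57), of *Prelp* without control replicate 2 (-0.50) and of *Tgfbi* without control replicate 2 (-0.63), without RbFox2 siRNA replicate 2 (-0.50) and in the DESeq2 Wald test (-0.74) were lost. Of the collagen receptors other than *Ddr2*, the integrin genes *Itgb1* (0.33, edgeR adjusted p = 0.173) and *Itga1* (0.38, edgeR adjusted p = 0.335) were not called.

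**Figure D4:**
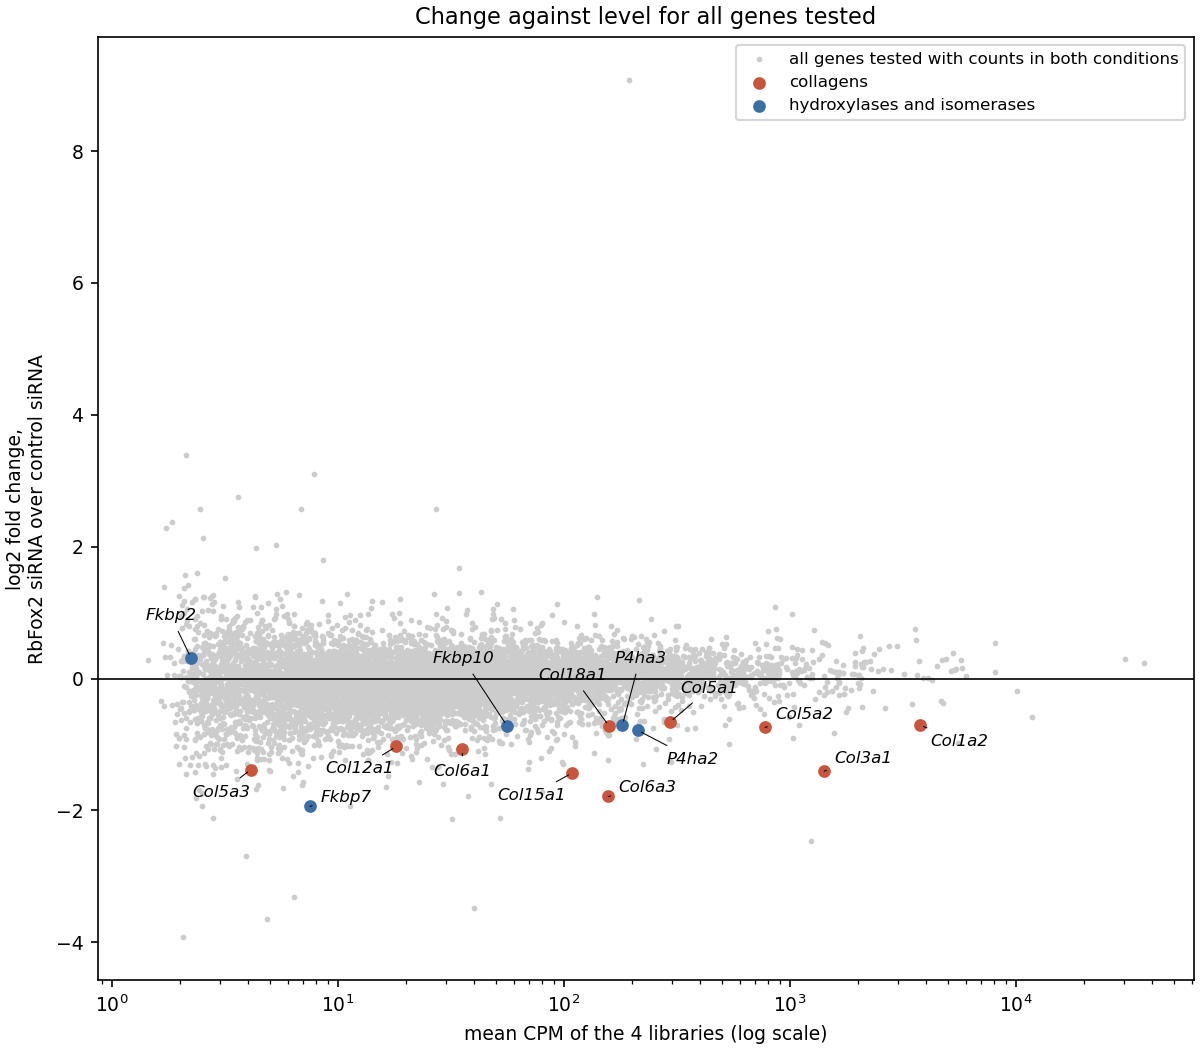
Log2 fold change, RbFox2 siRNA over control siRNA (vertical axis), against the mean CPM of the 4 libraries (horizontal axis, log scale) for all genes tested that had reads in both conditions, in grey, with collagens in red and hydroxylases and isomerases in blue. Col1a2 and Col3a1 lie among the most abundant genes and below 0, and Fkbp7 and Fkbp2 lie at the low end, where the spread of all genes is widest.

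Genes with a profile close to each member over the 4 libraries were found by the root mean square difference of log2 CPM, each profile centred on its own mean, among 8253 genes and 6700 transcripts that had 10 or more counts in each library. The nearest to *Col1a2* was *Pkm* (pyruvate kinase), with 1831 and 1529 counts against 986 and 1127 and a difference of 0.028. It was followed by ENSRNOG00000020014 (0.031) and ENSRNOG00000009303 (0.034), for which no name was held. The nearest to *Col3a1* were *Nptxr* (0.071), *Fibin* (0.090) and *Col15a1* (0.095). *Fkbp7* was nearest to *Cpa4*, with 54 and 47 counts against 16 and 12 (0.098), then *Sspn* (0.126) and *Uap1* (0.192). Plod2-201 was nearest to Csnk1g3-205, with 17 and 18 counts against 97 and 98 (0.099), then Arhgap17-201 (0.239) and Abcb1b-202 (0.274). With 4 libraries such closeness describes shared level changes only, and one collagen appears among these 12 neighbours.

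At the transcript level, *Sec31a* showed a change in which transcripts were read. Sec31a-204 had 65 and 72 counts with control siRNA and 127 and 141 with RbFox2 siRNA, for a log2 fold change of 0.90 (SE 0.224, edgeR adjusted p = 0.0348), although the gene fell. That call was lost without control replicate 1 (0.74), without control replicate 2 (1.03) and in the DESeq2 Wald test (0.91). Sec31a-201 had 22 and 16 against 47 and 39 (1.12, edgeR adjusted p = 0.0741), and was past the cutoffs without a low-count filter (1.13) and without RbFox2 siRNA replicate 2 (1.30). Together they made 10.2% (95% Wilson interval 8.38 to 12.5%) and 11.8% (9.67 to 14.3%) of the reads of the gene with control siRNA. With RbFox2 siRNA the shares were 42.8% (38.0 to 47.6%) and 52.9% (47.6 to 58.2%), outside the intervals of both control libraries. The intervals cover counting error only, and the transcripts named are those whose level rose.

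Transcripts of other pathway genes could be set beside them. Loxl1-201 carried 93.8% to 95.2% of *Loxl1* reads in the 4 libraries, and rose with it (0.59, SE 0.149, edgeR adjusted p = 0.0394). It lay at the fold cutoff, and its call was lost with scaling by library size only (0.54), with 10 counts required in each library (0.58), and without control replicate 1 (0.53), control replicate 2 (0.61) or RbFox2 siRNA replicate 1 (0.48). Hspa5-201 carried 87.4% and 88.1% against 88.8% and 87.4%. Bmp1-201 made 83.9% (95% Wilson interval 78.6 to 88.1%) and 85.4% (80.3 to 89.3%) of *Bmp1* reads with control siRNA and 75.8% (71.2 to 79.9%) and 77.3% (72.6 to 81.4%) with RbFox2 siRNA. The shares were lower in both RbFox2 siRNA libraries, but some intervals overlapped between conditions. Fn1-204, a transcript of the fibronectin gene, whose protein binds collagen, had 452 and 418 counts against 1015 and 1007, a log2 fold change of 1.16 (SE 0.154, edgeR adjusted p = 0.0003). The level of the whole *Fn1* gene was not analysed here.

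**Figure D5:**
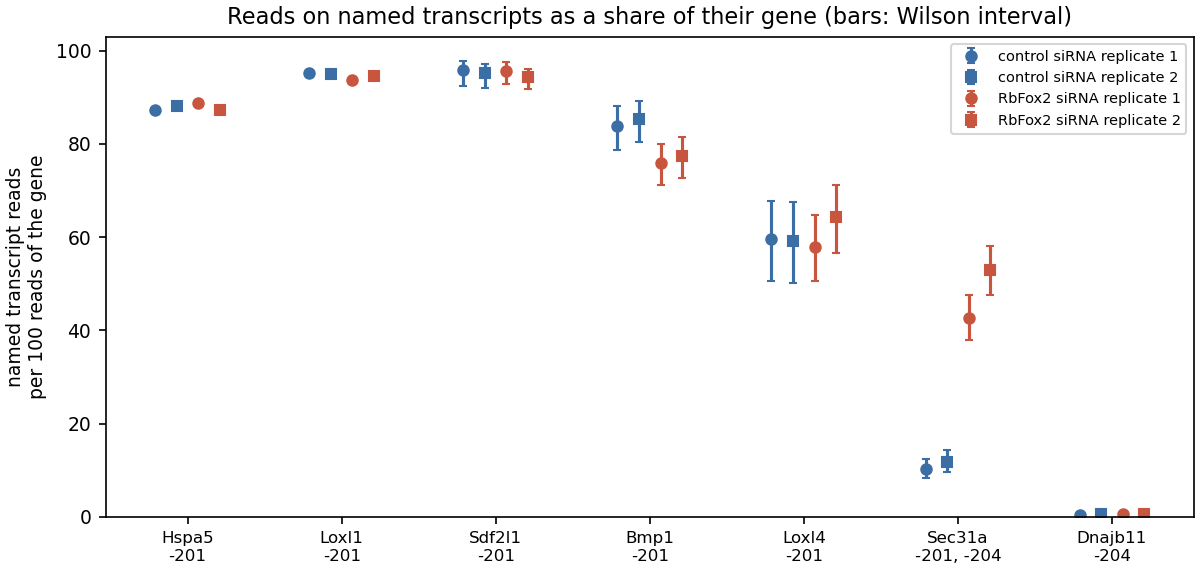
Reads on named transcripts per 100 reads of their gene (vertical axis) in each library for 7 genes, control siRNA in blue and RbFox2 siRNA in red, with 95% Wilson intervals. The share of Sec31a-201 and Sec31a-204 together rises from 10.2% and 11.8% to 42.8% and 52.9%, and that of Bmp1-201 is lower in both RbFox2 siRNA libraries, with some overlap of the intervals.

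The identified markers of smooth muscle and of proliferation were lower, as were most identified collagens. Of 12 smooth muscle marker symbols, 4 were identified, *Cnn1*, *Cald1*, *Tpm1* and *Itga8*, and these 4 were present in every library and called lower, against 4.37% of all genes, with log2 fold changes from -0.91 to -0.70. The transcript Tpm1-203 went the other way, with a log2 fold change of 1.31 (SE 0.216, edgeR adjusted p = 0.0022), and its share of *Tpm1* reads was 12.3% and 10.7% with control siRNA and 53.1% in both RbFox2 siRNA libraries. The summed level of the 4 identified smooth muscle genes was 2304 and 1907 CPM with control siRNA and 1159 and 1282 CPM with RbFox2 siRNA. Because names of falling genes were held almost only for called genes, their count says nothing of the other smooth muscle markers. All 10 proliferation markers, *Mki67* and *Top2a* among them, were called lower (median -0.74), against the same 4.37%, with a summed level of 1733 and 1765 CPM against 986 and 996 CPM. Some of these calls were lost when a library was left out. *Cald1* was not called without control replicate 1 (-0.50). Without control replicate 2 the calls of *Bub1b* (-0.65), *Ccnb1* (-0.55), *Ccnb2* (-0.53), *Cdc20* (-0.49) and *Plk1* (-0.61) were lost, as were *Bub1b* without control replicate 1 (-0.73) and *Ccnb1* (-0.58) and *Cdc20* (-0.55) without RbFox2 siRNA replicate 2. The call of *Bub1b* was also lost in the DESeq2 Wald test (-0.68). Of 4 leukocyte marker symbols only *Cd68* was identified, at 5.48 ± 0.93 CPM with control siRNA and 7.61 ± 2.10 CPM with RbFox2 siRNA (SD, n = 2), and no endothelial or epithelial marker was identified. The part of these differences in the collagen values was not tested, and in bulk RNA fewer cells of a kind and less RNA per cell cannot be told apart.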

How the data were processed

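Full-length PacBio reads of 4 libraries were aligned by the authors to mRatBN7.2 with pbmm2 and counted on Ensembl genes and transcripts with IsoQuant. The deposited values are raw counts without normalization, 1 gene table and 1 transcript table per condition. Tables were joined by identifier, and names came from the name columns of a supplementary dataset of the study, of which part was held (2337 genes and 1111 transcripts). Low counts were removed by filterByExpr, library sizes were scaled by TMM, and conditions were compared with glmQLFit and glmQLFTest in edgeR 4.0.16 (R 4.3.3), with Benjamini-Hochberg adjustment and cutoffs of 0.05 and 1.5-fold. Standard errors were derived from the estimate and its F statistic. The labels do not state separate cultures, so p-values measure only the spread between these libraries, which may be technical. Replicates differed by more than sampling noise (chi-square per degree of freedom 4.50 and 8.71). On simulated counts in which 200 genes carried a log2 change of 2, 197 were recovered and 15 others were called among 8727 tested. The corresponding numbers for transcripts were 196 of 200, with 8 others called among 7652 tested. The simulation used a single fixed dispersion, changed only features above a minimum read count and left out features with no reads in one condition. It therefore does not speak to smaller changes or to features with no reads in one condition. Alternatives used DESeq2 1.42.0, other scalings, other filters, a replicate block and the omission of each library. The members and lists were chosen with earlier results of these data known. Named were the members, every called list gene or otherwise the 2 with most reads per list, and the 3 nearest profiles of each member. For proliferation and smooth muscle markers the list is given in sum. Motifs, windows of 30 bases and GC content come from RefSeq promoters.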

Additional observations from a re-analysis of the deposited data

How the results depend on the processing

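The members were selected on these libraries, so refits of the same counts are given as ranges and not as support. With 1 library left out, log2 fold changes ranged from -0.75 to -0.65 for *Col1a2*, -1.49 to -1.31 for *Col3a1*, -2.27 to -1.62 for *Fkbp7*, 2.34 to 2.63 for Plod2-201 and -1.89 to -1.67 for *Rbfox2*, where the lone library of a condition is assumed to vary like the other condition. Collagens called lower numbered 8 to 9, enzymes called lower 4 to 5, collagens called higher 1 and the log2 change of the *Col1a2* to *Col3a1* ratio 0.65 to 0.75. Genes called ranged from 571 to 1052 and transcripts called from 145 to 764 (679 and 330 with all libraries). Genes called numbered 328 when each library had to hold 10 counts and 337 without features at 0 in one condition, settings that remove the genes with no reads in a condition and so take the number of collagens called higher from 1 to 0. Transcripts called numbered 209 in the DESeq2 Wald test and 522 without a low-count filter, and the cause was not tested. Among the list genes, *Fkbp2* changed sign, to -0.26 without control replicate 1 and -0.06 without RbFox2 siRNA replicate 2, and was 1.16 without control replicate 2. Another scaling moved the median of all genes by between -0.054 and 0.019.

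Same-numbered libraries share only a number, and their deviations from the condition means correlated at -0.13 for genes and -0.15 for transcripts. With a replicate block the calls numbered 862 for genes and 313 for transcripts, 10 collagens and 5 enzymes were lower and 1 collagen higher, and the log2 fold changes were -0.70, -1.40, -1.94, 2.50 and -1.78 for *Col1a2*, *Col3a1*, *Fkbp7*, Plod2-201 and *Rbfox2*. A crossed pairing, added after the data were seen, called 646 genes and 525 transcripts. With 2 libraries per condition and 11 to 51 reads of *Fkbp7* in each, the size of that change is the value most limited by depth.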
